A study of Mus musculus with 9 samples.

Results

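Gene expression in butyrate-treated mouse dendritic cells (DC) was compared with that in untreated DC across 12393 genes. The comparison used 6 of the 9 one-colour Affymetrix arrays of the study, 3 in each group. A gene was included when a non-control probe set carried its symbol and no other symbol, and the brightest such probe set on average stood for it. A change is the difference between the group means of the deposited log2 values, butyrate minus untreated, and its error is limma's standard error with n = 3 arrays per group. In every group the cells were Flt3L-elicited DC, selected with CD11c magnetic beads from the spleens of mice aged 6 to 8 weeks that bore B.16 tumors expressing Flt3L, the cytokine that expands DC. The groups differ in their labelled treatment, which is untreated, butyrate or TSA (trichostatin A). The 3 TSA arrays contributed to the estimate of spread and are set beside butyrate where the difference between both treatments was tested. Mouse strain, dose, duration and the setting of the treatment (animals or culture) are not given in these sources. Nor is it given whether replicates are separate animals, so p-values describe the spread among these arrays, which may be technical.

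Butyrate is a short-chain fatty acid that gut bacteria make from dietary fibre. Cells take it up through monocarboxylate transporters, burn it in mitochondria by beta-oxidation, sense it through G protein-coupled receptors such as Ffar2 and Hcar2, and have several of their zinc-dependent histone deacetylases (HDACs), chiefly those of class I, inhibited by it. HDACs remove acetyl groups from histones and other proteins, and TSA, a hydroxamic acid, is also an inhibitor of zinc-dependent HDACs. DC take up, process and present antigen to T cells, and butyrate is known to dampen their inflammatory programme.

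The promoters of 5 genes with large changes are shown first. H1f2, Ckb, Gsn and Idh2 are among the 15 largest rises, and Ifit1 is an interferon-induced gene that fell. Each run is RefSeq's window on GRCm38.p6, from 250 bases before to 50 bases after the gene's start, written 5′ to 3′ on the gene's own strand. Capitals mark every match, on either strand, to CCAAT in H1f2 and Ckb, to GGGCGG (the GC box) in Gsn and Idh2, and to GAAANNGAA (an interferon-type motif) in Ifit1, where 2 of the 3 matches share bases. The windows are at chr13:23738557-23738856, plus strand; chr12:111672289-111672588, minus strand; chr2:35256109-35256408, plus strand; chr7:80115301-80115600, minus strand; and chr19:34640639-34640938, plus strand.
H1f2: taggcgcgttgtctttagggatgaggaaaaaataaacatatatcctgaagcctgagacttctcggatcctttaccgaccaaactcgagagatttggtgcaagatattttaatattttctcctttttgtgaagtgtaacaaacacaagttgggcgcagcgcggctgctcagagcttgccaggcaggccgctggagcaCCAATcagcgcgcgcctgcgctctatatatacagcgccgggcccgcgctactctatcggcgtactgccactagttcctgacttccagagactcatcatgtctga
Ckb: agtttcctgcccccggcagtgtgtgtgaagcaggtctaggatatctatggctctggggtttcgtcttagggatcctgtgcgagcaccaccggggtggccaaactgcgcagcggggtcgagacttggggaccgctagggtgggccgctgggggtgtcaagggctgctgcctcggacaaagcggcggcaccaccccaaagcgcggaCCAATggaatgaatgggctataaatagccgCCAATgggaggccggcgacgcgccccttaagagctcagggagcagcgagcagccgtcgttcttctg
Gsn: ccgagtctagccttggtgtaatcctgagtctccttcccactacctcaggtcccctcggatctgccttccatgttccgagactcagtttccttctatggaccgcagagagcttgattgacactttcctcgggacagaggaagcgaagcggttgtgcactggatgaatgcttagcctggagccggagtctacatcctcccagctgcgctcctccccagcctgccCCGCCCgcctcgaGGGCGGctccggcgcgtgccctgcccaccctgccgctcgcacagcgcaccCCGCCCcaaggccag
Idh2: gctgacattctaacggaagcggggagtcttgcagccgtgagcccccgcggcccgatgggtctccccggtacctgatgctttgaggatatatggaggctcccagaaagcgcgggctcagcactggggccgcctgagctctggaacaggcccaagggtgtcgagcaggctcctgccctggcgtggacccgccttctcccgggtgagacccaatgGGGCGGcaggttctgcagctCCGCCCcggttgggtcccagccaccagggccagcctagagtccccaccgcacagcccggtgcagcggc
Ifit1: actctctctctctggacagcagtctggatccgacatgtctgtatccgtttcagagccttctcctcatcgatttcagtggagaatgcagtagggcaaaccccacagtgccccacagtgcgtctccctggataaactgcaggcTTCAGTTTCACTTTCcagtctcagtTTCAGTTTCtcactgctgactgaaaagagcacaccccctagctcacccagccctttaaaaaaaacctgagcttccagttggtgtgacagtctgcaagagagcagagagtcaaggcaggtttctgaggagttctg

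Of the 27025 genes with a RefSeq window of this length, 37.9% hold CCAAT, 35.9% GGGCGG and 8.6% GAAANNGAA on either strand. Of the 9882 tested genes with a window, 38.1%, 57.5% and 7.2% hold them. CCAAT and GGGCGG are therefore common letters and GAAANNGAA is less common. All matches only describe these windows. A count of such motifs in rising against falling genes is void here, because a window was at hand for 79.1% of the genes that fell at least 2-fold, under the 80% required.

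Butyrate was accompanied by many small rises and by fewer but larger falls. A gene was called when limma's Benjamini-Hochberg adjusted p over the 12393 genes was under 0.05. By this rule 33.6% of genes were called higher (4166) and 24.8% were called lower (3075). At least 2-fold were 2.74% of genes on the higher side (339) and 4.6% on the lower side (570). At least 4-fold were 22 rises and 94 falls, and at least 8-fold 0 rises and 23 falls. The arrays of both groups did not overlap in 36.5% of genes with butyrate higher and in 26.2% with butyrate lower.

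The balance of small changes depended on the scale. The 7 hybridization spike-in probe sets, bacterial transcripts added to the labelled sample, averaged 10.37 on the untreated and 10.78 on the butyrate arrays. Shifting arrays to equal spike-ins lowers every change by 0.415, and 932 genes were then called higher (7.52%) and 8417 lower (67.9%). All 339 rises and all 570 falls of at least 2-fold kept their direction and their call on that scale, while 594 of the 4166 rises became falls and 2640 lost their call. The 3075 falls all stayed falls. Of the 5 other scalings this one shifted the median change farthest and gave the most falls, although both poly-A spike-in scales gave fewer rises (828 and 548). Counts on it are given beside the gene groups below. They stand against the 7.52% and 67.9% of all genes, as deposited counts stand against 33.6% and 24.8%. The probe sets of 18S ribosomal RNA, an abundant RNA without a poly-A tail, were also brighter with butyrate, by 0.754 ± 0.16 (exact two-sided permutation p = 0.1, the smallest that 3 against 3 arrays allow).

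Small rises were spread over all levels, and changes of at least 2-fold were few in the dimmest genes. In the fifth of genes with the lowest mean, 487 rose and 73 fell, but 0 rose and 5 fell at least 2-fold. A further quantile normalization turned these 487 and 73 into 155 and 159. In the level class just above it, 30 rose and 65 fell at least 2-fold. In the fifth with the highest mean, 919 rose and 962 fell, and 78 rose and 150 fell at least 2-fold. RMA values of dim genes lie near a floor, so their folds are understated.

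**Figure D1:**
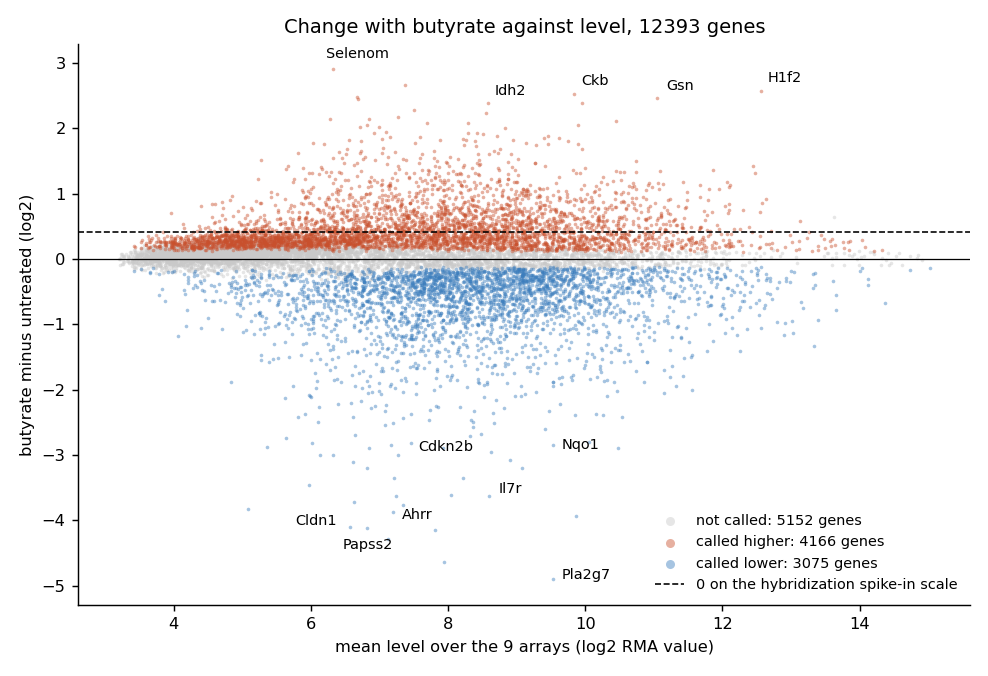
Change with butyrate (log2, butyrate minus untreated, vertical axis) against the mean level over the 9 arrays (log2 RMA value, horizontal axis) for 12393 genes, with called rises (4166) in red, called falls (3075) in blue and other genes in grey. The dashed line at 0.415 is where 0 lies on the hybridization spike-in scale, and the largest falls, such as Pla2g7 at −4.90, reach farther from 0 than the largest rise, Selenom at 2.90.

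The labelled cell type was checked against markers. The DC genes H2-Ab1 and Cd74, of MHC class II, were at 13.98 and 14.39 in untreated cells and were not called (−0.09 ± 0.044 and −0.09 ± 0.044). Itgax, which encodes CD11c, fell by 0.74 ± 0.061, the Flt3L receptor Flt3 by 0.63 ± 0.045 and the DC transcription factor Zbtb46 by 0.67 ± 0.063. Of 9 conventional DC markers, 1 rose and 6 fell, with a median change of −0.67 against 0.085 over all genes (0 and 8 on the hybridization spike-in scale). Of 9 markers of melanocytes, which would mark tumour cells, 4 rose and 1 fell, with changes between −0.82 and 0.33 (0 and 5 on the hybridization spike-in scale). Their summed unlogged levels were 661.3 to 732.6 untreated and 562.9 to 605.2 with butyrate. The defining melanocyte genes Tyr and Dct were at 4.52 and 4.42 in untreated cells, near the floor, and at 4.40 and 4.56 with butyrate. In these bulk samples, fewer cells of a type and less RNA per cell cannot be told apart.

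Most zinc-dependent HDAC genes were higher after treatment. Of the 8 measured zinc-dependent HDAC genes, 7 rose and 0 fell, with a median change of 0.48 (4 and 2 on the hybridization spike-in scale). The class I enzyme gene Hdac1 was at 10.02, 10.09 and 10.06 on the untreated arrays and at 11.20, 11.16 and 11.19 on the butyrate arrays. Every butyrate array lay above every untreated one, a rise of 1.13 ± 0.052 (limma adjusted p = 3.97e-08). The cytoplasmic deacetylase gene Hdac6 rose by 0.92 ± 0.062, Hdac11 by 0.92 ± 0.11 and the class IIa gene Hdac5 by 0.69 ± 0.046. Hdac2, a close relative of Hdac1, rose by 0.27 ± 0.055 with butyrate (−0.15 on the hybridization spike-in scale) and was 0.39 ± 0.055 lower than with TSA (limma adjusted p = 0.000471).

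Sirtuins, deacetylases that use NAD instead of zinc, split by member. Sirt3, the mitochondrial sirtuin gene, rose by 1.36 ± 0.055 and its mitochondrial relative Sirt4 by 0.63 ± 0.061. Sirt1, the main nuclear sirtuin gene, was at 10.17, 10.17 and 10.18 without treatment and at 8.71, 8.64 and 8.77 with butyrate. The groups were far apart, and the fall of 1.47 ± 0.056 was larger than with TSA by 0.45 ± 0.056 (limma adjusted p = 0.000243). Of the 5 sirtuin genes, 4 rose and 1 fell (2 and 1 on the hybridization spike-in scale).

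Histone genes mostly rose, by 13 of 21 with 2 falling and a median of 0.42. After scaling to the hybridization spike-ins, 8 were called higher and 8 lower, so rises no longer outnumbered falls. That scaling called 7.52% of all genes higher and 67.9% lower. Against these shares, rises were still more frequent among histone genes and falls less frequent. H1f2, a linker histone that compacts chromatin between nucleosomes, was at 11.04, 10.91 and 10.98 in untreated cells and at 13.52, 13.55 and 13.59 in butyrate-treated cells. Its arrays did not overlap, and it was 5.96-fold higher, the third largest rise among genes at a level of 6 or more in the higher group. The histone H3 genes H3c4 and H3c7 rose by 1.81 ± 0.21 and 1.70 ± 0.14, and the H2A genes H2aw and H2az2 by 1.76 ± 0.055 and 1.11 ± 0.045. The centromeric histone Cenpa and the variant H2az1 were the 2 that fell, by 0.72 ± 0.050 and 0.30 ± 0.042. Replication-type histone genes have near-identical copies and mostly lack a poly-A tail, so their values may mix copies.

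Partners and counterparts of HDACs were mixed. Of 24 genes for proteins of the SIN3, NuRD, CoREST and NCoR complexes, which carry HDACs to DNA, 10 rose and 8 fell (2 and 15 on the hybridization spike-in scale). The shares over all genes were 33.6% and 24.8% (7.52% and 67.9% on that scale). The NuRD genes Mta3 and Mbd3 fell by 1.22 ± 0.057 and 1.01 ± 0.091 and the scaffold gene Sin3b by 0.88 ± 0.044, while the NuRD remodeller Chd4 rose by 0.74 ± 0.072. Among acetyltransferases and bromodomain readers, 6 of 22 rose and 12 fell (2 and 17 on the hybridization spike-in scale). The acetyltransferase genes Kat2b and Crebbp fell by 0.81 ± 0.060 and 0.79 ± 0.068. Brd2, which reads acetylated histones, rose by 0.90 ± 0.12 and lay 0.73 ± 0.12 above its level with TSA (limma adjusted p = 0.0012; 0.40 and not called on the poly-A scale without the Trpn probe sets).

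Enzymes of histone and DNA methylation also changed member by member. Kdm5b and Kdm5a, demethylases of histone H3 lysine 4, rose by 1.21 ± 0.091 and 1.01 ± 0.23. Kdm6a and Kdm3b, demethylases of other lysines, fell by 0.87 ± 0.076 and 0.80 ± 0.058. The maintenance DNA methyltransferase gene Dnmt1 rose by 0.61 ± 0.053 (0.19 and not called on the hybridization spike-in scale), whereas the de novo enzyme gene Dnmt3a fell by 1.06 ± 0.059.

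The largest rises were in genes of varied function, several of them usually expressed outside blood cells. Selenom, a selenoprotein of the endoplasmic reticulum, was at 4.03, 4.46 and 4.38 in untreated cells, near the floor, and at 7.15, 7.04 and 7.38 with butyrate. No array of one group came close to the other group, and the rise of 2.90 ± 0.11 understates the change in RNA. Fgf11, an intracellular member of the fibroblast growth factor family, rose by 2.67 ± 0.11, and Fgfr1, a receptor of that family, by 2.17 ± 0.065. Only 1 of the 2 probe sets of Fgf11 was called.

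Ckb, the brain-type creatine kinase that buffers ATP, was at 8.22, 8.22 and 8.15 without and at 10.78, 10.70 and 10.71 with butyrate, 5.78-fold higher. The arrays within each group lay within a narrow band and the groups were far apart. Its promoter holds 2 of the CCAAT matches printed above. Of 60 genes with neuronal or synaptic roles, 31 rose and 2 fell (7 and 30 on the hybridization spike-in scale), with a median of 0.21. Over all genes 33.6% rose and 24.8% fell. The summed unlogged levels of the 60 genes were nevertheless lower with butyrate, at 17620 to 18250 against 24330 to 26150 untreated. Beside Ckb, the vesicle protein genes Syt11 and Stx1a rose by 1.24 ± 0.061 and 1.21 ± 0.081, and the synaptic adhesion gene Nlgn2 by 1.14 ± 0.14. Of the 16 measured Armcx, Maged, Bex and Tceal genes, most of them X-linked, 9 rose and 0 fell (6 and 5 on the hybridization spike-in scale). Maged1 rose by 1.94 ± 0.060, Armcx2 by 1.82 ± 0.067 and Magee1 by 1.12 ± 0.081. Of 32 germline genes, normally active in testis or ovary, 12 rose and 0 fell, none of them 2-fold (1 and 21 on the hybridization spike-in scale). Their share of rises was near the 33.6% over all genes. Maged1, Armcx2 and Magee1 were lower with butyrate than with TSA, by 0.58 ± 0.060, 0.66 ± 0.067 and 0.72 ± 0.081.

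Genes of the cytoskeleton were split between large rises and broad falls. Gsn, or gelsolin, which severs and caps actin filaments, was at 9.49, 9.62 and 9.62 in untreated and at 12.04, 12.00 and 12.08 in butyrate-treated cells. The groups did not overlap, the difference was 5.5-fold, and 5 of its 6 probe sets were called higher. Csrp2 (a LIM protein of smooth muscle), Ppp1r14a (an inhibitor of myosin phosphatase), Cnn3 (calponin) and Pfn2 (the profilin of neurons) rose by 2.28 ± 0.082, 2.45 ± 0.058, 1.85 ± 0.047 and 1.87 ± 0.071. Ppp1r14a was 1.13 ± 0.058 above its level with TSA and Pfn2 0.73 ± 0.071 below. Over the 49 actin genes, however, 12 rose and 28 fell, with a median of −0.23 (7 and 36 on the hybridization spike-in scale). The motor gene Myo5a fell by 1.74 ± 0.067, and among tubulins Tuba1a fell by 1.28 ± 0.048 while Tubb2b rose by 1.08 ± 0.10.

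Further large rises were in Septin4 (2.14 ± 0.16), a GTPase of the septin cytoskeleton, in Cep19 (2.24 ± 0.064), a gene of centrosomes and cilia, and in Txnip (2.12 ± 0.060), a brake on glucose uptake and on thioredoxin. The metallothionein genes Mt2 and Mt1, whose proteins bind zinc, rose together. Mt2 was at 8.30, 8.89 and 8.10 on the untreated arrays, which spread widely, and at 10.79, 10.81 and 10.85 on the butyrate arrays, which all lay higher, a rise of 2.39 ± 0.16. Mt1 rose by 1.51 ± 0.058, whereas the zinc importer gene Slc39a4 fell by 2.07 ± 0.084. Abhd3, a phospholipid-cleaving enzyme, rose by 2.48 ± 0.15 from the floor and was 1.19 ± 0.15 lower than with TSA (limma adjusted p = 0.000214).

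**Figure D2:**
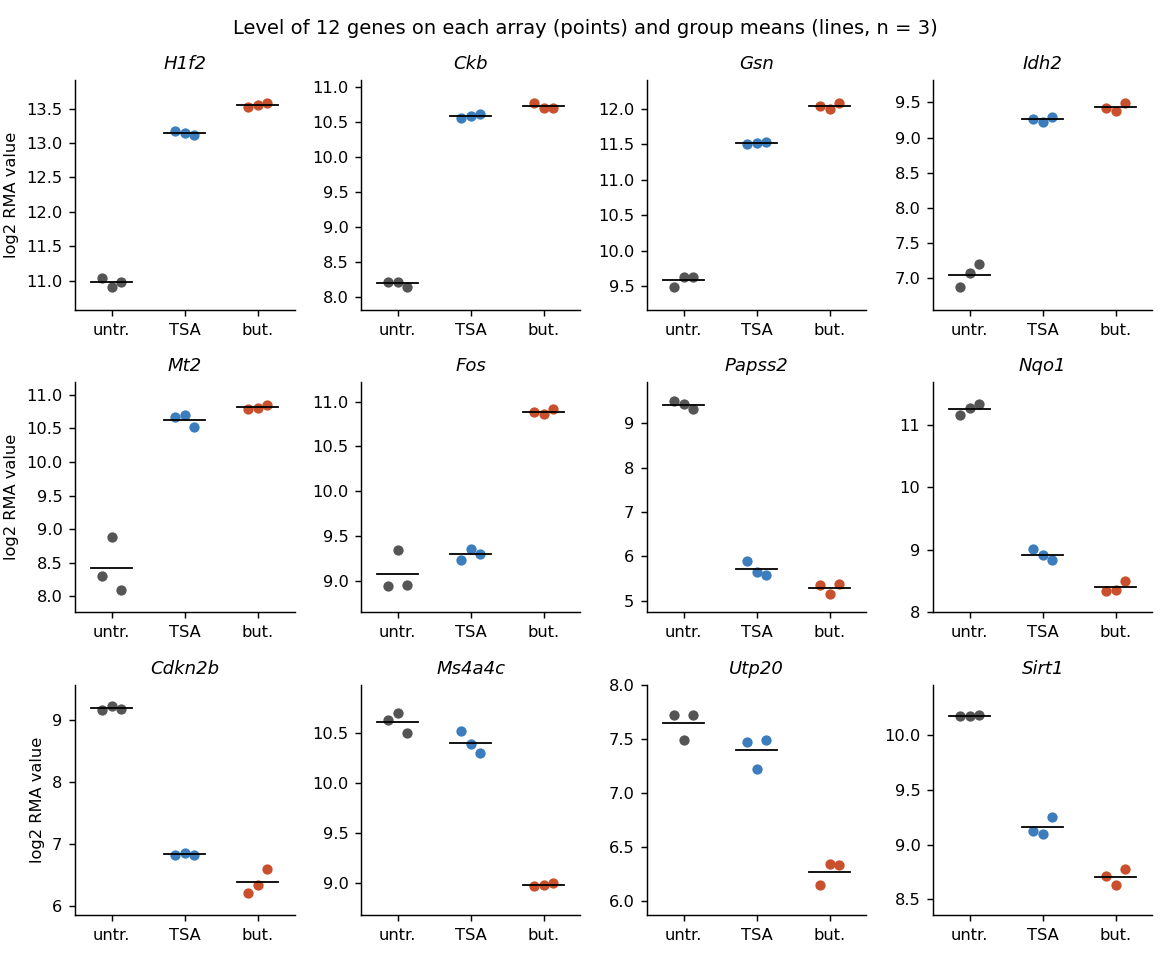
Level (log2 RMA value, vertical axes, which do not start at 0) of 12 genes on each array, by group on the horizontal axes (untreated in grey, TSA in blue, butyrate in red), with group means as lines (n = 3). Butyrate arrays lie apart from untreated arrays in every panel, from H1f2 at 13.55 against 10.98 to Papss2 at 5.30 against 9.42, and in the panels of Fos, Ms4a4c and Utp20 the TSA arrays lie near the untreated ones.

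Few genes for uptake and sensing of butyrate were called on the deposited scale. Of 7 monocarboxylate transporter genes 2 rose and 1 fell (0 and 7 on the hybridization spike-in scale), and of 6 receptor genes 0 rose and 2 fell (0 and 5 on that scale). The transporter gene Slc16a1 (MCT1) was 0.15 ± 0.057 higher, which became −0.27 after scaling to the hybridization spike-ins and lost its call when any single array but untreated replicate 2 was left out. Slc5a8, a sodium-coupled transporter of butyrate, was at 4.17 and 4.09, near the floor. Of the receptors, Ffar2 fell by 0.37 ± 0.077 and Hcar2 was not called (0.09 ± 0.083, limma adjusted p = 0.393). Pparg, a nuclear receptor of fatty acids, was at 8.07, 8.12 and 8.13 without and 5.90, 6.16 and 6.16 with butyrate, groups that did not overlap, and fell by 2.03 ± 0.086.

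Genes of fatty acid oxidation and ketone bodies numbered 30, of which 16 rose and 9 fell, with a median of 0.24 (8 and 15 on the hybridization spike-in scale). Not all lie on the route by which butyrate is burned, as the list also holds genes of long-chain and peroxisomal oxidation. Hadh, which oxidises short-chain hydroxyacyl-CoA, was at 6.84, 7.04 and 6.96 in untreated and at 9.07, 8.98 and 9.07 in butyrate-treated cells. All 3 butyrate arrays lay above the untreated ones, a rise of 2.09 ± 0.066. Acads, the dehydrogenase that acts on butyryl-CoA, rose by 0.71 ± 0.064, the thiolase Acaa2 by 1.12 ± 0.069, and Bdh1, which interconverts the ketone bodies, by 1.33 ± 0.10. Bdh1 and Acaa2 were lower than with TSA, by 0.54 ± 0.10 and 0.21 ± 0.069 (for Acaa2 not called with arrays centred on the median), and for Acads the difference from TSA was −0.02 ± 0.064 (limma adjusted p = 0.872; −0.42 and called on the hybridization spike-in scale).

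In the TCA cycle 11 of 24 genes rose and 7 fell (6 and 14 on the hybridization spike-in scale). Over all genes the shares were 33.6% and 24.8% (7.52% and 67.9% on that scale). Idh2, the mitochondrial isocitrate dehydrogenase that yields NADPH, was at 6.88, 7.07 and 7.20 on the untreated and at 9.42, 9.38 and 9.49 on the butyrate arrays. The groups were far apart and the rise was 5.22-fold. The malate dehydrogenases Mdh1 and Mdh2 rose by 1.18 ± 0.079 and 1.07 ± 0.054, while pyruvate carboxylase (Pcx), which feeds the cycle, fell by 1.41 ± 0.10. The 3′ minus 5′ difference between the control probe sets of Pcx, which reflects RNA and labelling quality, was 1.20 in untreated and 0.363 in butyrate samples. The same difference rose from 0.432 to 0.682 for beta-actin and from 0.159 to 0.224 for Gapdh, the standard controls of RNA quality, each with an exact two-sided permutation p of 0.1. In TSA samples the differences were 0.840 for Pcx, 0.641 for beta-actin and 0.192 for Gapdh. The part of RNA quality in the fall of Pcx, or in other changes from untreated cells, was not tested.

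Of 19 genes of glycolysis and glucose uptake, 12 rose and 6 fell, with a median of 0.38 (7 and 7 on the hybridization spike-in scale). The glucose transporter gene Slc2a3 was at 8.30, 8.48 and 8.40 without and at 10.14, 10.13 and 10.21 with butyrate, apart in all arrays, and rose by 1.77 ± 0.058; 2 of its 4 probe sets were called higher. Aldoc and Tpi1, enzymes of the middle of the pathway, rose by 1.51 ± 0.067 and 1.25 ± 0.071. Pfkfb3, which makes the main activator of glycolysis, fell by 1.80 ± 0.050. Carriers of the Slc25 family, which move metabolites across the inner mitochondrial membrane, rose in 17 of 33 cases and fell in 6 (6 and 17 on the hybridization spike-in scale), led by Slc25a44, Slc25a30, Slc25a15 and Slc25a23 with rises of 1.20, 1.13, 1.09 and 1.03.

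Cholesterol synthesis genes fell nearly throughout, and genes of fatty acid synthesis changed in both directions. Of 20 cholesterol synthesis genes 18 fell and 1 rose, a median of −1.11 (19 and 0 on the hybridization spike-in scale), and 12 of the 20 were lower with butyrate than with TSA while 0 were higher (background 20% and 15.9%). Sc5d and Lss, late enzymes of the pathway, fell by 1.77 ± 0.058 (1 of 2 probe sets called) and 1.77 ± 0.071 (2 of 3), and Idi1, an early one, by 1.80 ± 0.044. Of 14 genes of fatty acid synthesis and elongation 5 rose and 8 fell (2 and 10 on the hybridization spike-in scale). Fatty acid synthase (Fasn) fell by 1.51 ± 0.054, the desaturase Fads2 by 1.89 ± 0.20 and malic enzyme (Me1), a source of NADPH, by 1.89 ± 0.090. Elovl5, which lengthens polyunsaturated fatty acids, rose by 1.35 ± 0.051. Of the genes that export cholesterol or answer to LXR, 10 of 15 fell and 3 rose (13 and 1 on the hybridization spike-in scale). The falls included Mylip (−1.85), which degrades the LDL receptor, lipoprotein lipase Lpl (−2.68) and Apoe (−1.15).

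Genes of NRF2 and glutathione, many of which supply glutathione or detoxify electrophiles, fell in 13 of 25 cases and rose in 8 (19 and 2 on the hybridization spike-in scale). Not all are NRF2 targets, as the list also holds Nfe2l2, which encodes NRF2, and its inhibitor Keap1. Nqo1, a quinone reductase, was at 11.15, 11.26 and 11.33 in untreated and at 8.35, 8.36 and 8.50 in butyrate-treated cells, 7.21-fold lower and without overlap. It was also 0.52 ± 0.069 below its level with TSA. The glutathione transferase genes went both ways: Gsta4, Gstk1 and Mgst3 rose by 1.56 ± 0.11, 1.47 ± 0.10 and 1.16 ± 0.048, and Mgst1 fell by 0.94 ± 0.063. Only 1 of 2 probe sets was called for each of Mgst3 and Mgst1.

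**Figure D3:**
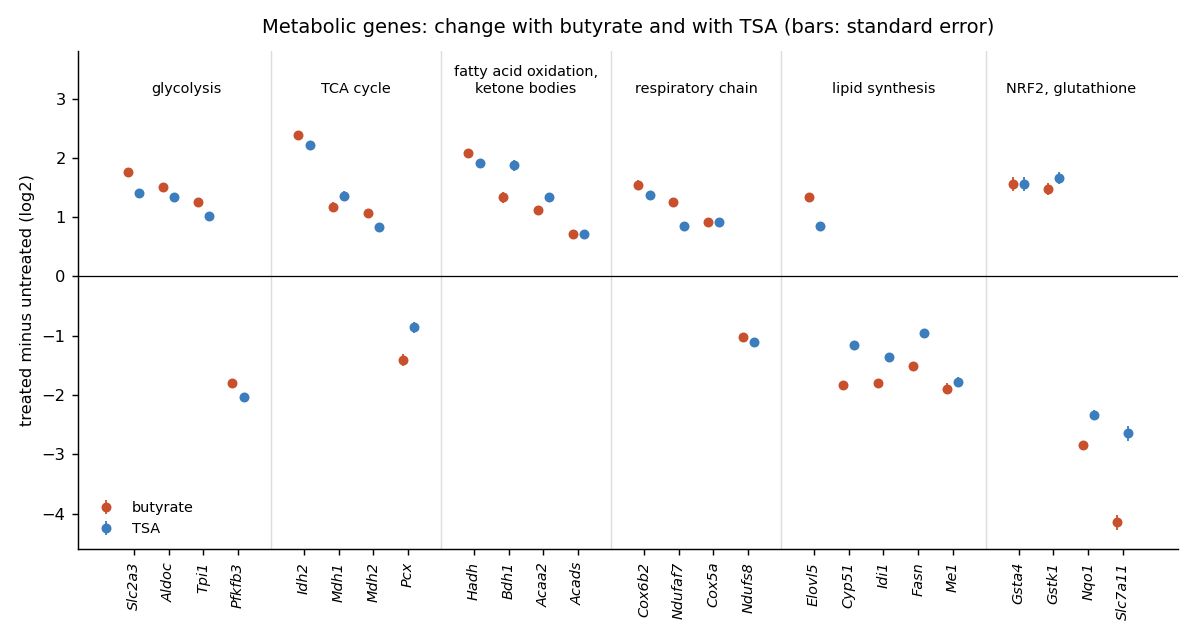
Change from untreated (log2, vertical axis) with butyrate (red) and TSA (blue) for 25 metabolic genes grouped by pathway along the horizontal axis, with limma's standard errors as bars. Both treatments share the untreated arrays; Idh2 at 2.38 with butyrate is the largest rise shown and Slc7a11, the cystine transporter, at −4.15 the largest fall.

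Large falls outside the cytokine and receptor groups were in genes of several tissues and pathways. They include the phospholipase Pla2g7 (−4.90) and the cystine transporter Slc7a11 (−4.15). Papss2, which makes the donor for sulfation, was at 9.51, 9.42 and 9.33 without and at 5.35, 5.16 and 5.39 with butyrate, 17.4-fold lower. That fold is of its brightest probe set. Of its 4 probe sets 3 were called lower, the others of these with smaller changes of −0.92 and −1.47. The tight junction gene Cldn1 fell from 8.93, 8.87 and 8.70 to 4.71, 4.54 and 4.95, and its level was lower than with TSA by 1.41 ± 0.16; 2 of its 4 probe sets were called. In both genes every butyrate array lay below every untreated array. Ahrr, the repressor of the aryl hydrocarbon receptor, fell by 3.87 ± 0.13, whereas Ahr, the receptor itself, was not called (0.15 ± 0.061).

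Coagulation factor X (F10), the anchoring protein ladinin (Lad1), the melanosomal and macrophage protein Gpnmb and the Notch ligand Jag1 changed by −3.71 ± 0.15, −3.63 ± 0.13, −3.61 ± 0.14 and −3.45 ± 0.11, all called lower, although only 1 of the 2 probe sets of Jag1 was called. Il7r, the interleukin 7 receptor, was at 10.60, 10.76 and 10.68 in untreated cells and at 7.12, 6.99 and 7.04 with butyrate, a change of −3.63 ± 0.064 with tight replicates in both groups. It was 1.02 ± 0.064 lower than with TSA. Ido1 and Kmo, enzymes of the kynurenine pathway of tryptophan breakdown, fell by 2.89 ± 0.13 and 1.82 ± 0.077. Aldh1a2, which makes retinoic acid, fell by 0.70 ± 0.076.

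Cell cycle inhibitors did not move as a block. Cdkn2b (p15) was at 9.15, 9.21 and 9.18 without and at 6.20, 6.33 and 6.59 with butyrate, which is 7-fold lower with no overlap. Cdkn1b (p27) fell by 0.62 ± 0.052, Cdkn1c (p57) rose by 0.72 ± 0.13, and Cdkn1a (p21) changed by −0.17 (limma adjusted p = 0.0199) and lay 0.42 ± 0.052 above its level with TSA. That difference was 0.021 on the hybridization spike-in scale and 0.15 on the poly-A scale, and was called on neither. The call of Cdkn1a against untreated cells was lost without butyrate replicate 1 (limma adjusted p = 0.0595) or untreated replicate 3 (limma adjusted p = 0.0703). Of 66 genes of the cell cycle and DNA replication, 25 rose and 19 fell (8 and 41 on the hybridization spike-in scale). As deposited, both shares were near the 33.6% and 24.8% over all genes. Cdc6, which licenses replication origins, rose by 1.13 ± 0.068, and the D-type cyclins Ccnd2 and Ccnd3 rose by 1.02 ± 0.072 and 0.99 ± 0.074. Ccnd2 was 1.10 ± 0.072 higher than with TSA (limma adjusted p = 9.86e-06), and 6 of its 7 probe sets were called higher against untreated cells.

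Of genes that control cell death, Casp6 and Casp2 rose by 1.61 ± 0.10 and 1.06 ± 0.058, while Cflar, which blocks caspase-8, fell by 1.90 ± 0.061. Casp4, a sensor of lipopolysaccharide, fell by 1.43 ± 0.077. All 4 probe sets of Cflar were called lower. In the BCL2 family the killer gene Bak1 fell by 1.31 ± 0.050, the survival gene Bcl2l1 fell by 0.64 ± 0.057 and the killer genes Bid and Bnip3 rose by 0.71 ± 0.059 and 0.73 ± 0.086.

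**Figure D4:**
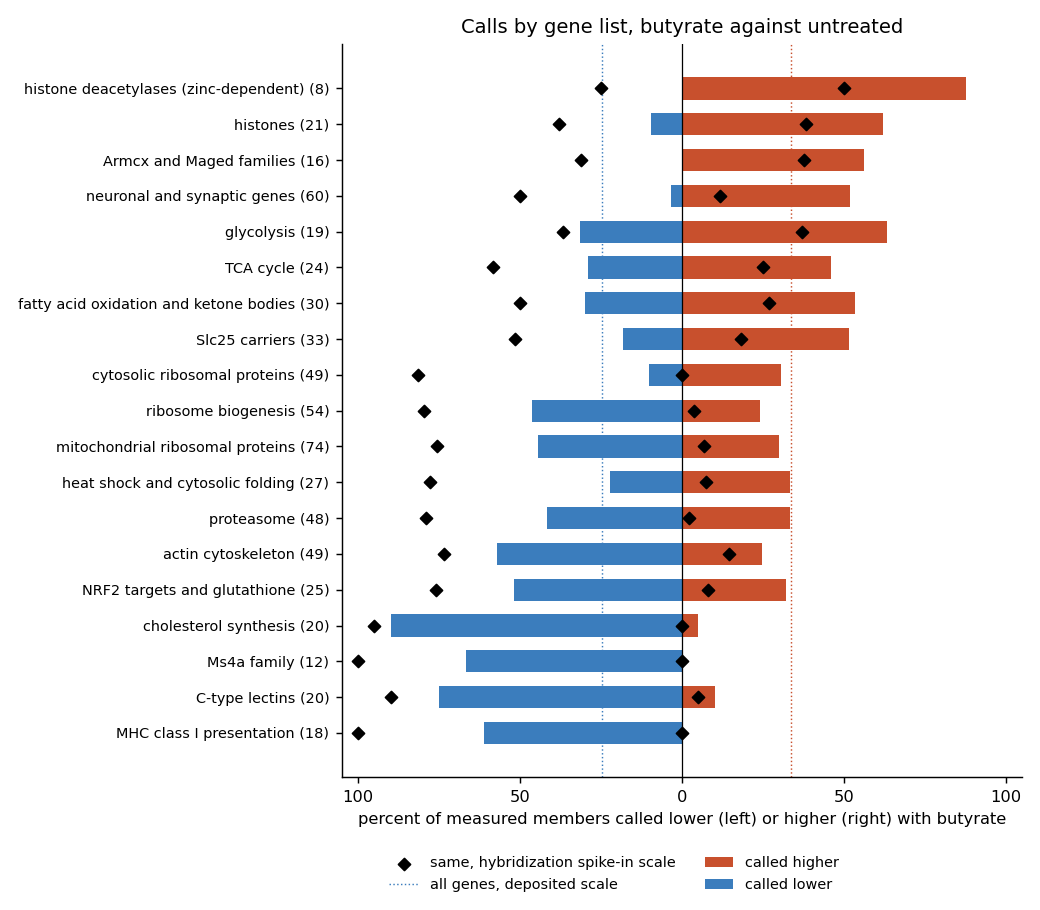
Share of measured members (horizontal axis, percent, number measured in brackets) called higher (red, right) or lower (blue, left) with butyrate in 19 gene lists, with the shares on the hybridization spike-in scale as black diamonds and the shares over all genes (33.6% and 24.8%) as dotted lines. Cholesterol synthesis (18 of 20 lower) and the HDAC genes (7 of 8 higher) stand at the ends of the range, and the diamonds lie left of the bar ends or at them.

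Butyrate and TSA differed in genes that build and fold proteins. Against TSA, 15.9% of genes were higher with butyrate (1968) and 20% lower (2480), and among genes above the median level 17.1% and 33.7%. Of 54 genes of ribosome biogenesis, which make and process ribosomal RNA in the nucleolus, 38 were lower than with TSA and 0 higher, with a median of −0.29. Under the 5 other scalings 32 to 53 were lower and at most 1 higher. Among these is the hybridization spike-in scale, where 81.1% of all genes were lower than with TSA and 0.75% higher. Against untreated cells, 13 rose and 25 fell with butyrate (2 and 43 on the hybridization spike-in scale), and 29 rose and 1 fell with TSA (26.3% and 21% of all genes), both against the same untreated arrays.

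Utp20, a factor of early ribosomal RNA processing, was at 7.72, 7.49 and 7.72 on the untreated, 7.47, 7.22 and 7.49 on the TSA and 6.15, 6.34 and 6.33 on the butyrate arrays. The butyrate arrays lay below all others, 1.12 ± 0.092 below TSA (limma adjusted p = 2.48e-05). Rrs1, an assembly factor of the large ribosomal subunit, fell by 0.86 ± 0.059 and was 1.10 ± 0.059 below TSA. Nop10, a part of the complexes that modify ribosomal RNA, rose by 1.06 ± 0.056. The 2 probe sets of Heatr1 were called in opposite directions, so it is left without a direction. Of the 49 proteins of the finished cytosolic ribosome, 15 rose and 5 fell with butyrate (0 and 40 on the hybridization spike-in scale), and 0 were higher and 3 lower than with TSA.

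Chaperone genes were also lower than with TSA. Of 27 heat shock and folding genes 21 were lower with butyrate than with TSA and 0 higher, 20 to 27 of them under the other scalings. Against untreated cells 9 rose and 6 fell (2 and 21 on the hybridization spike-in scale), where TSA raised 22. Hsph1, a large chaperone chosen after its values were seen, was at 9.82, 9.78 and 9.82 in untreated, 10.57, 10.46 and 10.49 in TSA-treated and 9.28, 9.23 and 9.29 in butyrate-treated cells. TSA arrays were the highest and butyrate arrays the lowest, without overlap, 1.24 ± 0.048 apart. Hspa2 and Hspa1b rose by 1.54 ± 0.084 and 0.70 ± 0.051 with butyrate and were 0.52 ± 0.084 and 0.27 ± 0.051 below TSA, although Hspa1b has a near-identical copy that its probe set may share, and the co-chaperone Bag3 fell by 0.91 ± 0.072.

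Mitochondrial ribosomal proteins, which translate mitochondrial messages, were lower with butyrate than with TSA in 42 of 74 cases and higher in 2. Complex I of the respiratory chain, with its assembly factors, was lower in 27 of 39 and higher in 3, and the genes with Psm symbols, mostly proteasome subunits, were lower in 32 of 48 and higher in 0. Under the other scalings the lower counts ranged from 35 to 73, 24 to 37 and 25 to 47, and stayed above the higher counts. On the spike-in scales, here as for ribosome biogenesis and the chaperones, calls over all genes were also nearly all lower than TSA. Single members changed more against untreated cells than the groups did. Mrpl54, Mrpl27 and Mrps28 fell by 1.80 ± 0.055, 1.52 ± 0.078 and 1.44 ± 0.052. The complex I subunit gene Ndufs8 fell by 1.02 ± 0.062, with 5 of 6 probe sets called lower, and the assembly factor gene Ndufaf7 rose by 1.26 ± 0.057. In complex IV, Cox5a rose by 0.92 ± 0.044 and the testis-type subunit Cox6b2 by 1.55 ± 0.075.

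Immediate early genes, which answer signals within minutes, were among the genes higher with butyrate than with TSA. Of 28, 13 were higher and 2 lower, against 6 and 14 after scaling to the hybridization spike-ins, where 0.75% of all genes were higher and 81.1% lower than with TSA. Fos was at 8.94, 9.34 and 8.95 on the untreated, 9.23, 9.36 and 9.30 on the TSA and 10.89, 10.86 and 10.92 on the butyrate arrays. Untreated and TSA arrays overlapped and the butyrate arrays lay above both, 1.59 ± 0.10 above TSA (limma adjusted p = 7.49e-06), the largest such difference among genes called in both butyrate comparisons. Nr4a1, an orphan nuclear receptor, rose by 1.85 ± 0.076 and was 1.27 ± 0.076 above TSA. Klf6 went the other way and fell by 1.39 ± 0.068, with no call against TSA (0.05 ± 0.068; −0.35 and called on the hybridization spike-in scale).

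Other genes higher with butyrate than with TSA included Il1r2, the decoy receptor of interleukin 1, at 7.80, 8.03 and 7.86 in untreated, 8.47, 8.41 and 8.53 in TSA-treated and 9.80, 9.77 and 9.78 in butyrate-treated cells. The 3 groups did not overlap, and butyrate was 1.32 ± 0.064 above TSA. Socs3, a feedback inhibitor of cytokine signals, was 1.18 ± 0.064 above TSA and Cxcl10, a T cell attractant, 1.22 ± 0.11 above. The skin protease Asprv1 was 1.24 ± 0.13 above TSA yet 2.02 ± 0.13 below untreated cells. Of transcription factors of DC, Irf4 and Spib rose by 0.68 ± 0.053 and 0.79 ± 0.061. Irf4 was at 7.66, 7.72 and 7.77 in untreated, 7.79, 7.67 and 7.69 in TSA-treated and 8.37, 8.41 and 8.43 in butyrate-treated cells. TSA and untreated arrays overlapped and butyrate arrays lay above both, 0.69 ± 0.053 above TSA (limma adjusted p = 1.87e-05). That difference was 0.36 and not called on the poly-A scale without the Trpn probe sets, and only 1 of the 2 probe sets of Irf4 was called higher than untreated.

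Zeb2, which steers myeloid and plasmacytoid fates, fell by 2.51 ± 0.20 and was 1.04 ± 0.20 below TSA. Over 48 DC transcription factors 16 rose and 22 fell (5 and 34 on the hybridization spike-in scale), and 17 were higher and 14 lower than with TSA. Vdr, the vitamin D receptor, rose by 1.61 ± 0.087.

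**Figure D5:**
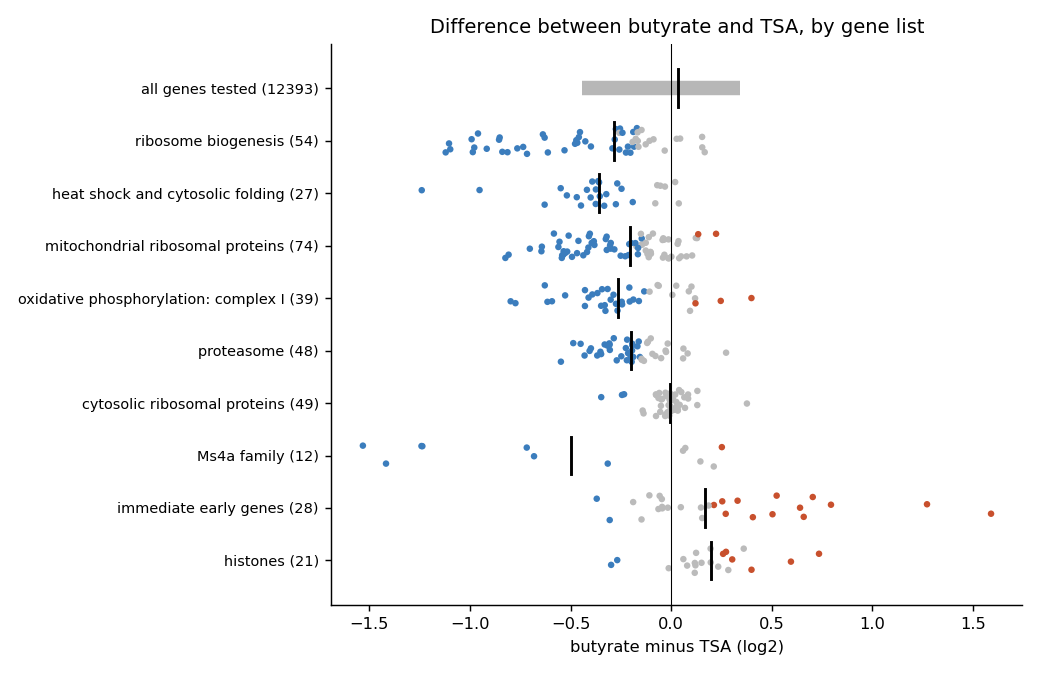
Difference between butyrate and TSA (log2, horizontal axis) for the members of 9 gene lists (points, number measured in brackets), red where called higher with butyrate, blue where called lower and grey otherwise; black lines are medians and the grey bar spans percentiles 5 to 95 of all 12393 genes. Ribosome biogenesis and heat shock genes lie to the left of 0 with medians of −0.29 and −0.36, and cytosolic ribosomal proteins lie around 0.

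Membrane proteins of the Ms4a family, found on myeloid and B cells, fell with butyrate in 8 of 12 cases, 7 of them at least 2-fold, and rose in 0 (12 and 0 on the hybridization spike-in scale). Against TSA 7 were lower and 1 higher. Ms4a4c was at 10.63, 10.70 and 10.51 on the untreated, 10.52, 10.39 and 10.30 on the TSA and 8.97, 8.98 and 9.01 on the butyrate arrays. Untreated and TSA arrays overlapped, and butyrate arrays lay below both, 1.42 ± 0.067 below TSA (limma adjusted p = 4.31e-06). Ms4a6d and Ms4a6c were lower than TSA by 1.53 ± 0.12 and 1.24 ± 0.10, and Ms4a7 fell the most against untreated cells, by 2.95 ± 0.11.

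Lectin, chemokine and growth factor receptor genes also fell in the majority. The lectin receptor genes Clec4e and Clec4b1 were 1.83 ± 0.083 and 1.76 ± 0.11 below TSA, the largest such differences, and changed by −2.35 ± 0.083 and −3.00 ± 0.11 from untreated cells. The chemokine receptor Ccr2 was at 9.69, 9.53 and 9.45 in untreated, 9.25, 9.12 and 8.98 in TSA-treated and 7.19, 7.42 and 7.58 in butyrate-treated cells. The butyrate arrays stood apart from both other groups, 1.72 ± 0.11 below TSA. Of 32 growth factor and cytokine receptors 18 fell and 10 rose (24 and 2 on the hybridization spike-in scale), among them Csf2ra, the GM-CSF receptor (−2.03 ± 0.063), and Il10rb, a chain of the interleukin 10 receptor (−1.88 ± 0.059). Among genes of MHC class I presentation 11 of 18 fell and 0 rose (18 and 0 on the hybridization spike-in scale), including the trimming peptidase Erap1 (−1.82 ± 0.071), which was 0.96 ± 0.071 below TSA, and the immunoproteasome subunit Psmb10 (−1.94 ± 0.060). H2-DMa, which loads peptides onto MHC class II, rose by 1.16 ± 0.052.

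Markers of DC subsets and of macrophages mostly fell, and those of other spleen cells varied. In this paragraph counts on the hybridization spike-in scale, risen and fallen, stand in brackets. On that scale 7.52% of all genes rose and 67.9% fell, and as deposited 33.6% rose and 24.8% fell. Of 9 markers of CD11b-type DC 1 rose and 7 fell (1 and 8), and of 8 markers of plasmacytoid DC 1 rose and 7 fell (1 and 7). Of 10 markers of mature DC 1 rose and 9 fell (0 and 9). Of 8 markers of CD8-type DC 2 rose and 5 fell (0 and 6), with Xcr1 1.12 below untreated cells and 1.29 ± 0.072 below TSA. Of 14 macrophage and monocyte markers 1 rose and 11 fell (0 and 13), with summed unlogged levels of 6586 to 7010 untreated and 3031 to 3395 with butyrate. Of 12 neutrophil markers 3 rose and 7 fell (0 and 12), with summed levels of 42070 to 43300 untreated and 40270 to 40790 with butyrate, and Camp and Mmp8 fell by 2.02 ± 0.068 and 2.27 ± 0.10. Of 8 natural killer cell markers 1 rose and 3 fell (0 and 7), with summed levels of 3918 to 4147 untreated and 1265 to 1343 with butyrate. The lectin genes Klrk1 and Klrd1 fell by 2.58 ± 0.072 and 1.88 ± 0.070 while Ncr1, a defining marker of natural killer cells, was near the floor at 4.57 and 4.54. The part of such cells in the falls of Ms4a, lectin and receptor genes was not tested. Of 10 B cell markers 0 rose and 3 fell (0 and 9), and of 10 T cell markers 0 rose and 1 fell (0 and 10). Of 9 erythroid markers 3 rose and 5 fell (1 and 7). Car1, a carbonic anhydrase of red cells, rose by 1.65 ± 0.060, while Slc4a1, the anion exchanger of their membrane, fell by 0.60 ± 0.052.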

How the data were processed

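RNA of 9 samples of splenic dendritic cells, 3 per treatment, was measured on 9 one-colour Affymetrix arrays, after Trizol extraction and biotin labelling per the labels' protocols. The deposited values are log2 expression values per probe set, made by the authors with RMA per the submitters' processing notes. Of 22690 probe sets, 64 controls, 691 with several symbols and 1555 unnamed here were left out, and of the 20380 with 1 symbol, 20351 matched RefSeq's GRCm38.p6 table. The brightest probe set stood for each of 12393 genes. limma 3.58.1 in R 4.3.3 was fitted to all 9 arrays with the 3 groups as terms, with Benjamini-Hochberg adjustment over 12393 genes. The fit was tested on simulated data.

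Named genes were the 15 largest rises and falls at a level of at least 6 in the higher group, up to 4 genes per list by size of change, and 6 per direction against TSA, beside a list given whatever its members' values (Hdac2, Acads, Ahr, Aldh1a2, Cdkn1a, Flt3, H2-Ab1, Hcar2, Slc5a8 and Zbtb46 enter the text through it alone). Hsph1, Ncr1, Cd74, Tyr, Dct, H2az1, H2az2 and Cenpa fall outside that rule and were chosen after their values were seen. Members and lists were chosen with earlier results of these data known. Alternatives were spike-in and median scalings, quantile normalization, a level filter, leaving out arrays and a replicate block. Array values have no read depth, and their number limits the precision. Values of dim genes lie near the RMA floor. Correlations between arrays of a group were 0.9971 to 0.9985, and between butyrate and untreated arrays 0.9664 to 0.9686.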

Additional observations from a re-analysis of the deposited data

Results flagged for a closer look

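The hybridization spike-ins were 0.415 log2 units brighter on the butyrate than on the untreated arrays, in 3 of 3 butyrate arrays. They lie outside the comparison of genes, and the difference from 0 had an exact two-sided permutation p of 0.1, the smallest 3 against 3 arrays allow. The spike-ins of the TSA arrays averaged 10.38, against 10.37 on the untreated arrays.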

How the results depend on the processing

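Scaling to spike-ins moved the counts most. Genes higher than untreated numbered 932 on the hybridization, 828 on the poly-A and 548 on the poly-A scale without the Trpn probe sets (a scale chosen after seeing the data), and 2472 among genes above the median level. Genes lower numbered 8417 on the hybridization scale. On these 3 scales, 106, 155 and 124 genes were at least 2-fold higher and 1339, 1026 and 1180 at least 2-fold lower. Against TSA, genes higher numbered 3344 with centred arrays, 1284 above the median level, and 93, 59 and 19 on the spike-in scales, and genes lower numbered 10047 on the hybridization scale. The named changes that turned sign on the hybridization scale were Hdac2 (−0.15), Slc16a1 (−0.27), Ahr (−0.26), Hcar2 (−0.33) and Dct (−0.28), of which Ahr, Hcar2 and Dct were not called as deposited. On the poly-A scales, with and without Trpn, Hdac2 was −0.017 and −0.086 and Slc16a1 −0.14 and −0.21. Cdkn1a was 0.013 after quantile normalization. The cause of the spike-in differences was not tested.

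Leaving out single arrays gave 3685 to 4149 genes higher and 2874 to 3056 lower, with 334 to 356 and 551 to 582 at least 2-fold, and 1396 to 2009 higher and 2001 to 2474 lower than TSA. Deviations of same-numbered arrays correlated between −0.120 and 0.210, and those of other-numbered arrays between −0.246 and 0.157. With 3 arrays per group these values cannot settle whether the replicate numbers pair the samples. With a replicate block, 4068 genes were higher and 3021 lower than untreated, and 1807 higher and 2309 lower than TSA.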

Other observations

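Some gene groups not described above fell in most members. Of 30 interferon-stimulated genes 3 rose and 23 fell (0 and 27 on the hybridization spike-in scale). Of 17 genes for NF-kB subunits and inhibitors 3 rose and 14 fell (0 and 14 on that scale). Other groups split between rises and falls. Of 33 genes of the integrated stress and unfolded protein responses, 17 rose and 10 fell with butyrate (5 and 16 on the hybridization spike-in scale). Of 38 lysosomal proteases and hydrolases, 9 rose and 19 fell (1 and 33 on that scale). Of 171 numbered zinc finger genes, most of them DNA-binding repressors, 38 rose and 54 fell (8 and 130 on that scale), with 0 rises and 9 falls of at least 2-fold. The iron exporter gene Slc40a1 fell by 1.84 ± 0.071, and of 16 iron-handling genes 6 rose and 5 fell (0 and 11 on that scale). Over all genes 33.6% rose and 24.8% fell (7.52% and 67.9% on that scale).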
